A study of Homo sapiens with 16 samples.

Results

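Complexes III, IV and V complete the work of the mitochondrial respiratory chain. Complex III (cytochrome bc1) passes electrons to cytochrome c, complex IV (cytochrome c oxidase) passes them to oxygen, and complex V (ATP synthase) uses the resulting proton gradient to make ATP. Most of their subunits are encoded in the nucleus, and the heart, which lives on oxidative ATP, carries tissue-specific versions of several complex IV subunits such as COX6A2 and COX7A1. The genes described here were chosen by symbol: CYC1, the UQCR subunits, the COX4 to COX8 subunits and every gene named ATP5 except the inhibitor ATP5IF1 and pseudogenes. The rule found 41 genes among 43388 listed, 9 of complex III, 13 of complex IV and 19 of complex V. The rule reads symbols only, but it was set with earlier results of these data known. The subunits encoded by mitochondrial DNA were not analysed here.

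RNA was measured in 16 libraries of cardiomyocytes derived from human pluripotent stem cells (hPSC-CMs) of the induced pluripotent line WTC11, with 4 libraries in each of 4 groups. Day 16 RPMI/B27 was the baseline of wild-type cells differentiated by the GiWi protocol, which steers Wnt signalling with small molecules. From that day the cells were kept to Day 30 in standard RPMI/B27, in RPMI_glcM/B27, which is RPMI/B27 with glucose lowered to 5 mM, or in HPLM/B27, in which human plasma-like medium, made to resemble the metabolites of blood plasma at a matched glucose level, replaces RPMI. All groups carried the B27 supplement. The 4 libraries of a group are wells of a single differentiation of a single line (the series description gives 3 wells, the sample labels 4), so that p-values measure the spread between wells only.

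Values are TPM, gene counts scaled by gene length and library total. Comparing levels between genes rests on the lengths counted. Among the tested members these ran from 340 bases (COX7A1) to 6464 bases (ATP5F1A). Whole reads behind the TPM ranged from 7744768 to 16183655 per library. Libraries 3 and 4 of Day 30 RPMI/B27 stood apart: RNR1, a mitochondrial ribosomal RNA, reached 14387 and 29276 TPM there, against 49.5 to 6806 TPM in the other 14 libraries. Of the TPM of library 4, 30.6% lay outside ribosomal RNA, mitochondrial transfer RNA, MTRNR2-like genes and 7SK RNA, against up to 47.1% at Day 16. Mitochondrial messenger RNA was not among the RNAs set apart. All 10 cardiomyocyte-like markers had a mean of at least 1 TPM, and their summed level was 15232 to 17585 TPM at Day 16, 14689 to 19584 TPM at Day 30 in RPMI/B27, 16982 to 18894 TPM with RPMI_glcM/B27 and 15234 to 18328 TPM with HPLM/B27. The 11 hepatic endoderm-like markers summed to 466 to 829 TPM at Day 16 and 327 to 576 TPM at Day 30 in RPMI/B27. Their sums were 94.2 to 216 TPM with RPMI_glcM/B27 and 70.5 to 210.4 TPM with HPLM/B27. Of the defining genes, HNF4A averaged 2.19 TPM at Day 16 and 0.135 TPM in HPLM/B27, and FOXA2 stayed below a group mean of 1 TPM. All genes of this list but ALB had lower means in each Day 30 medium than at Day 16. ALB went the other way, from a mean of 21.2 TPM at Day 16 to 241.6 TPM at Day 30 in RPMI/B27. Its mean was 78.1 TPM with RPMI_glcM/B27 and 49.9 TPM with HPLM/B27. Fibroblast-like (6 of 10), smooth muscle-like (6 of 7), endothelial-like (1 of 8), pluripotent-like (2 of 6) and skeletal muscle-like markers (3 of 7) had means of at least 1 TPM, with MYH11, MYOD1, MYF5 and MYH8 at 0 throughout. Given for Day 16, RPMI/B27, RPMI_glcM/B27 and HPLM/B27 in turn, fibroblast-like sums were 239.7 to 437, 151 to 300.1, 118 to 163 and 122 to 186 TPM. Smooth muscle-like sums were 372 to 830.0, 242 to 1008, 268 to 351 and 297 to 518 TPM, and endothelial-like sums 43.0 to 55.3, 14.1 to 31.9, 16.6 to 25.9 and 19.5 to 31.8 TPM. Pluripotent-like sums were 48.0 to 65.1, 8.08 to 16.0, 13.9 to 19.3 and 22.0 to 29.5 TPM, with POU5F1, NANOG, SOX2 and DPPA4 averaging under 1 TPM. Skeletal muscle-like sums were 226 to 272, 163 to 591, 387 to 459 and 433 to 850.0 TPM. Fibroblast-like sums were thus lower in both 5 mM glucose media than at Day 16, and skeletal muscle-like sums higher. Among fibroblast-like genes, POSTN went the other way in RPMI_glcM/B27, from a mean of 32.1 TPM at Day 16 to 44.7 TPM. Its mean was 27.8 TPM in HPLM/B27. Endothelial-like sums were lower than at Day 16 in every Day 30 medium, standard RPMI/B27 included, and were mostly KDR. CKM and ACTA1, at means of 227 and 166 TPM, made up nearly all of the skeletal muscle-like sums. The part of these cell types in the results below was not tested, and in bulk RNA fewer cells and less RNA per cell cannot be told apart. A fit with RNR1 as a covariate is among the alternatives at the end, but whether RNR1 caused any difference was not tested.

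The promoters of 6 subunit genes are shown: COX5A, ATP5MC1 and COX6A1 for their changes below, ATP5ME and ATP5MG as motif examples, and COX7B as a marker of the group. Each is the 150 bases before the RefSeq transcription start, read 5′ to 3′ on the gene's strand (GRCh38.p14), with motif matches in capitals.
COX5A, chr15:74938074-74938223, minus strand: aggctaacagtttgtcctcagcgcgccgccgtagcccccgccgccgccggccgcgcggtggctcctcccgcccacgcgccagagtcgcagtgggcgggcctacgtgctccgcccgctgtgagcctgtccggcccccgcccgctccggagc
ATP5MC1, chr17:48892637-48892786, plus strand: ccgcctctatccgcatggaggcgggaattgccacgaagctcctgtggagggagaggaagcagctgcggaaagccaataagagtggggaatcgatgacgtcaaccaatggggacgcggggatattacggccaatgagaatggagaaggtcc
COX6A1, chr12:120437963-120438112, plus strand: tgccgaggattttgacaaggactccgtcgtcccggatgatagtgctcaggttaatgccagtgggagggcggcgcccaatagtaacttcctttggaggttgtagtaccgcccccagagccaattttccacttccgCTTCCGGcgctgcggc
ATP5ME, chr4:674277-674426, minus strand: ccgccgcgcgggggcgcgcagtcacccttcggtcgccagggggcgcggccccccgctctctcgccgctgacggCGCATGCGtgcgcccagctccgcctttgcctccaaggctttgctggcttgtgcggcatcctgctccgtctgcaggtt
ATP5MG, chr11:118401456-118401605, plus strand: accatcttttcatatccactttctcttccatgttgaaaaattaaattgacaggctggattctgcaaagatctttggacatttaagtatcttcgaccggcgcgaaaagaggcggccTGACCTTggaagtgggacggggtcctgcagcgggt
COX7B, chrX:77899318-77899467, plus strand: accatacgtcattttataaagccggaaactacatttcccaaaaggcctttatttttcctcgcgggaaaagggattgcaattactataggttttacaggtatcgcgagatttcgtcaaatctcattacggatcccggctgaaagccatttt

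NRF1, ETS factors such as GABP, estrogen-related receptors (ERR) and YY1 are transcription factors known to act on respiratory chain genes. Their core letters were searched on both strands of RefSeq windows of 250 bases before to 50 after the start, which 30 of the 41 members had. The ETS letters CCGGAAG were in 14 of the 30 members (46.7%) and in 10.3% of all 35116 windows, in COX6A1 beginning 16 bases before the start. NRF1's palindrome CGCATGCG, which matches both strands at once, was in 5 members (16.7%) and 2.02% of all windows, in ATP5ME 77 bases before the start. The ERR letters AAGGTCA were in 5 members (16.7%) and 3.92% of all windows, in ATP5MG 35 bases before the start, and the YY1 letters AAGATGGC in 4 members (13.3%) and 2.89% of all windows. COX5A, ATP5MC1 and COX7B held none of the 4 motifs in the 150 bases shown. A match says only that these letters stand there. CYC1, UQCRB, COX4I2, COX6C, COX7A1, ATP5F1B, ATP5F1D, ATP5MC3, ATP5MF, ATP5MF-PTCD1 and ATP5MGL had no window in the table.

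Of the 41 genes, 39 averaged 1 TPM or more across all 16 libraries and were tested. COX4I2, the hypoxia- and lung-associated paralog of COX4I1, fell under that filter with at most 2 reads in a library, and the readthrough gene ATP5MF-PTCD1, whose exons overlap ATP5MF and PTCD1 on the same strand, was listed at 0 in every library. Complex IV spanned the widest range of mean levels. COX5B, a subunit on the matrix side of the enzyme, averaged 1166 TPM over the 16 libraries, COX7C 846 TPM and COX6C 560.5 TPM, whereas COX6A2 averaged 17.7 TPM and COX7A1 2.64 TPM. In complex III the order ran from UQCRC2, a core protein, at 167 TPM to CYC1, cytochrome c1, at 38.2 TPM. In complex V the catalytic beta subunit ATP5F1B averaged 579 TPM and ATP5F1E, the epsilon subunit, 3.66 TPM, a value for which 3610 bases were counted. Counted lengths were 505 bases for COX5B, 2211 for UQCRC2, 1892 for CYC1 and 1759 for ATP5F1B. These orders thus rest in part on length. In GENCODE v44, 11 of the 41 members have an exon that overlaps another annotated gene on the same strand. Among them are COX6A1, ATP5PO, ATP5MG, COX8A and UQCR11, which are named below for their changes. How the counting treated such reads is not given in the sources used here. ATP5MGL, a close copy of the g-subunit gene ATP5MG, had 9 to 33 reads in a library, and its reads and those of ATP5MG may not be fully separable.

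At Day 30, some of the subunit genes were higher in the media with 5 mM glucose than in standard RPMI/B27. Between HPLM/B27 and RPMI/B27, 11 of the 39 tested members were higher and 0 were lower (limma, Benjamini-Hochberg adjusted over 16122 genes, threshold 0.05), where 1.51% of all genes tested were called higher and 0.893% lower. Between RPMI_glcM/B27 and RPMI/B27, 7 members were higher and 0 lower, against 1.36% of all genes higher and 0.837% lower. The members had a median log2 fold change of 0.38 in both comparisons, against -0.02 and 0.05 over all genes tested. These comparisons share the RPMI/B27 libraries as their reference, so they are not independent. Setting HPLM/B27 against RPMI_glcM/B27 directly, no member passed the test, 1 of 39 had an unadjusted p under 0.05 (COX6C, log2 fold change 0.25, adjusted p = 0.519), and 0.0496% of all genes were called higher and 0.0186% lower. Limma-voom on whole reads called 0 of 38 members there, with 2 at an unadjusted p under 0.05. Shares of all genes at that unadjusted level are not given, so these unadjusted counts are no result about the members.

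**Figure D1:**
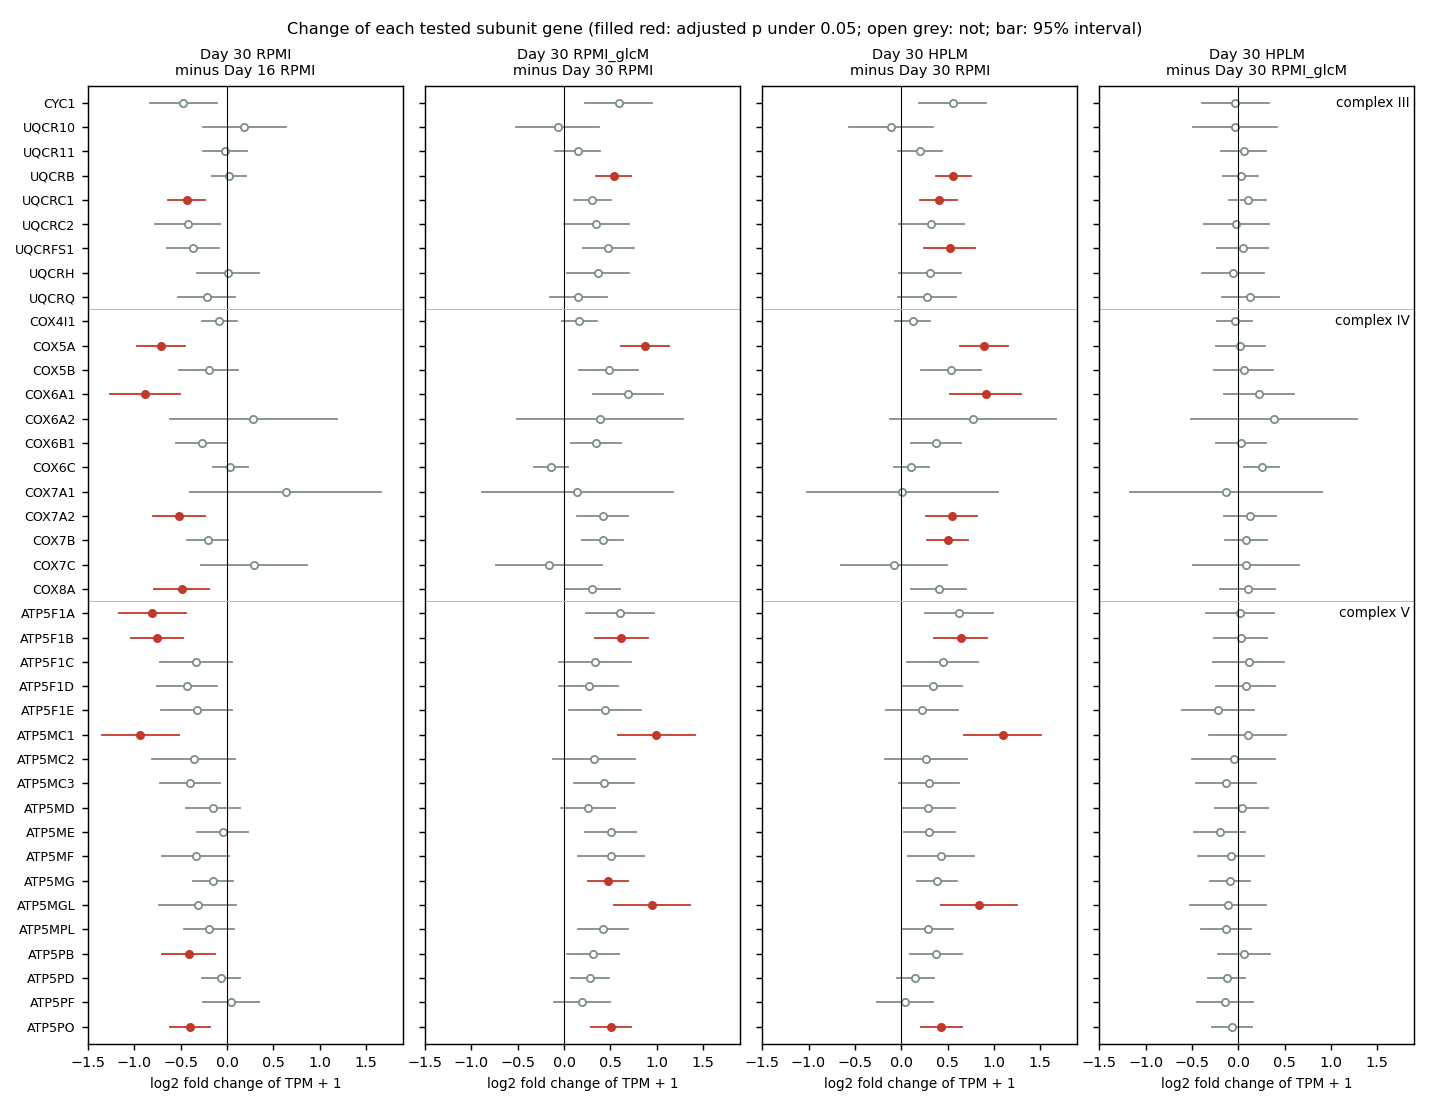
Log2 fold change of TPM + 1 (x axis) for each of the 39 tested subunit genes (rows, grouped by complex) in 4 comparisons, with 95% intervals from limma; filled red points have an adjusted p under 0.05. In the 3rd panel from the left, HPLM/B27 minus RPMI/B27 at Day 30, 11 of 39 points are red, while the panel of HPLM/B27 minus RPMI_glcM/B27 has no red point.

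In complex III, 3 of 9 tested genes were higher in HPLM/B27 than in RPMI/B27 and 1 of 9 in RPMI_glcM/B27. UQCRB, a small subunit at the ubiquinone-binding side, stood at 42.8, 38.0, 41.9 and 44.8 TPM in the 4 RPMI/B27 libraries of Day 30, at 58.0, 60.4, 60.9 and 65.2 TPM in RPMI_glcM/B27 and at 64.9, 59.6, 62.4 and 61.9 TPM in HPLM/B27. At Day 16 it was 40.2, 42.0, 39.2 and 43.5 TPM, so both standard-medium groups lay below every library of the other media, at either age. Its log2 fold change against RPMI/B27 was 0.54 (SE 0.0883, adjusted p = 0.00447) in RPMI_glcM/B27 and 0.56 (SE 0.0883, adjusted p = 0.00254) in HPLM/B27. Under median-of-ratios rescaling, described below, the first of these no longer passed (adjusted p = 0.0869). UQCRC1, a core protein (log2 fold change 0.40, adjusted p = 0.0318), and UQCRFS1, the Rieske iron-sulfur protein (0.52, adjusted p = 0.0450), were the other complex III genes higher in HPLM/B27. The call of UQCRC1 was also lost under that rescaling (adjusted p = 0.0584). The calls of UQCRC1 and UQCRFS1 were lost on leaving out single libraries (adjusted p up to 0.104 and 0.146).

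Complex IV had 4 of 12 tested genes higher in HPLM/B27 than in RPMI/B27 and 1 of 12 in RPMI_glcM/B27. COX5A, which with COX5B forms the matrix-facing part of the enzyme, was at 69.4, 70.4, 48.3 and 48.6 TPM in RPMI/B27 at Day 30. It was at 106, 111, 101 and 111 TPM in RPMI_glcM/B27 and at 107, 117, 103 and 109.6 TPM in HPLM/B27, so the highest RPMI/B27 library lay under the lowest of both other media. Its log2 fold change was 0.87 (SE 0.124, adjusted p = 0.00163) in RPMI_glcM/B27 and 0.89 (SE 0.124, adjusted p = 0.000851) in HPLM/B27, the smallest adjusted p of any member in each comparison. COX6A1, the widely expressed form of subunit VIa, was at 134, 129, 121 and 69.6 TPM in RPMI/B27, at 191, 192, 148 and 185 TPM in RPMI_glcM/B27 and at 181, 235, 219 and 199.8 TPM in HPLM/B27. Every library of either 5 mM glucose medium was above every RPMI/B27 library, and the change passed the test in HPLM/B27 (0.91, adjusted p = 0.0117) and not in RPMI_glcM/B27 (0.69, adjusted p = 0.0558).

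COX7B, a small structural subunit of complex IV on the X chromosome, was at 56.5, 60.3, 51.3 and 47.7 TPM in RPMI/B27 at Day 30. The values were 72.1, 64.2, 76.8 and 75.6 TPM in RPMI_glcM/B27 and 77.6, 77.7, 78.2 and 72.4 TPM in HPLM/B27, and neither group overlapped RPMI/B27. COX7B was higher in HPLM/B27 than in RPMI/B27 (0.50, SE 0.106, adjusted p = 0.0180). Against RPMI/B27 the RPMI_glcM/B27 value was 0.42 (adjusted p = 0.0512), on the other side of the threshold, but the direct difference between HPLM/B27 and RPMI_glcM/B27 was 0.09 with a 95% interval of -0.14 to 0.31 (adjusted p = 0.965). The COX7B call in HPLM/B27 was lost without HPLM/B27 library 1 (adjusted p = 0.0522), 2 (0.0596) or 3 (0.0682). COX7A2, the widely expressed form of subunit VIIa, was the other complex IV gene that passed in HPLM/B27 (0.54, adjusted p = 0.0388), at 16.9, 20.5, 19.3 and 14.8 TPM in RPMI/B27, 22.9, 24.9, 23.3 and 24.9 TPM in RPMI_glcM/B27 and 22.9, 30.3, 30.6 and 22.5 TPM in HPLM/B27, and its call too was lost without single libraries (adjusted p up to 0.148).

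Complex V had 4 of 18 tested genes higher in HPLM/B27 than in RPMI/B27 and 5 of 18 in RPMI_glcM/B27. ATP5MC1, which encodes the c subunit of the rotating ring, had the largest change of any called member. It was at 50.5, 32.5, 40.4 and 21.8 TPM in RPMI/B27, at 72.9, 70.1, 65.1 and 72.6 TPM in RPMI_glcM/B27 and at 74.8, 93.4, 68.4 and 67.4 TPM in HPLM/B27, with no overlap between RPMI/B27 and either other medium. The log2 fold change was 0.99 (SE 0.196, adjusted p = 0.0140) in RPMI_glcM/B27 and 1.09 (SE 0.196, adjusted p = 0.00648) in HPLM/B27. ATP5F1B was at 478, 465, 386 and 293 TPM in RPMI/B27, at 641, 675, 567 and 564 TPM in RPMI_glcM/B27 and at 624, 659.7, 629.5 and 575 TPM in HPLM/B27. Its RPMI/B27 libraries were again the 4 lowest at Day 30, and the difference was 0.61 in RPMI_glcM/B27 (adjusted p = 0.0247) and 0.64 in HPLM/B27 (adjusted p = 0.0175), both lost without single libraries (adjusted p up to 0.0926 and 0.0626). ATP5PO, the stalk protein that joins the motor to its membrane anchor (0.50 and 0.43, adjusted p = 0.0171 and 0.0345), and ATP5MGL (0.95 and 0.84, adjusted p = 0.0173 and 0.0313) passed in both, and ATP5MG, the g subunit, in RPMI_glcM/B27 (0.47, adjusted p = 0.0204). Each of these calls was also lost on leaving out some single library, with adjusted p up to 0.125 for ATP5PO, 0.112 for ATP5MGL and 0.07 for ATP5MG.

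**Figure D2:**
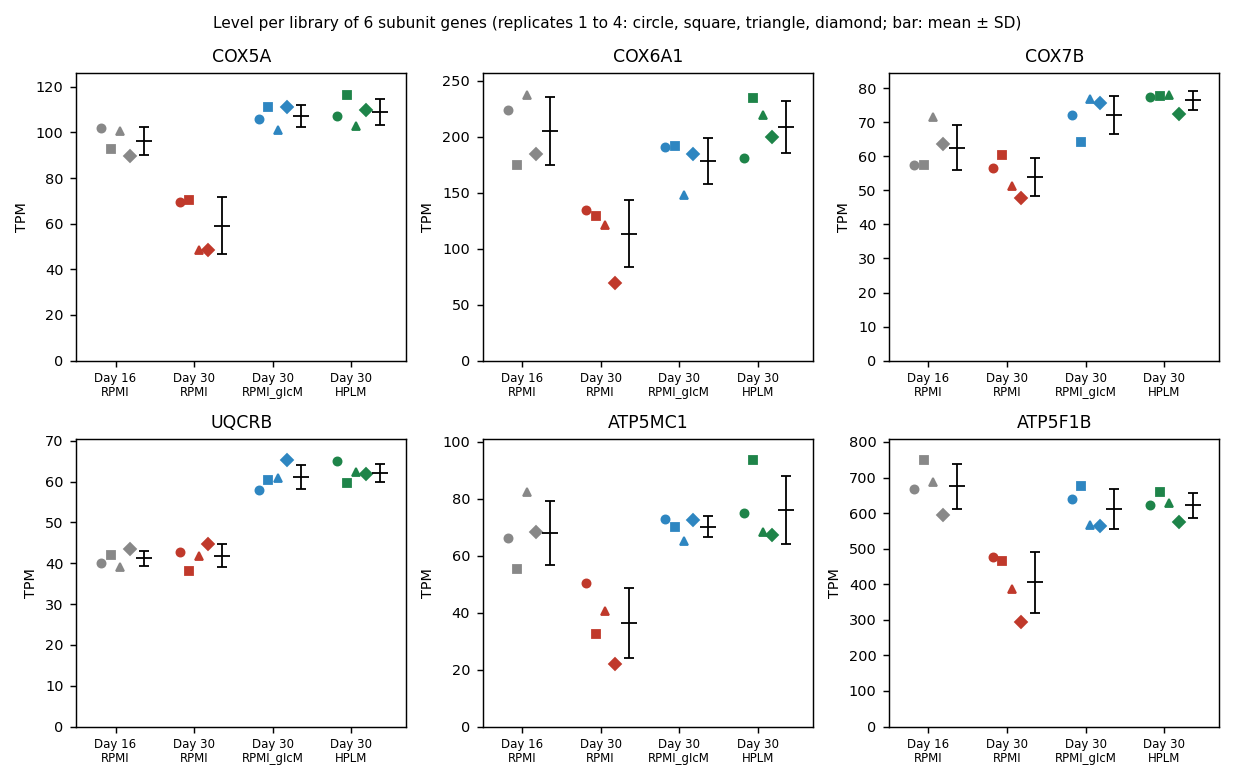
TPM (y axis) of COX5A, COX6A1, COX7B, UQCRB, ATP5MC1 and ATP5F1B in each of the 16 libraries, by group (x axis), with the mean and SD of the 4 libraries beside the points. In all 6 panels every RPMI_glcM/B27 and HPLM/B27 library lies above every Day 30 RPMI/B27 library, and the UQCRB panel shows Day 16 and Day 30 RPMI/B27 overlapping at 38.0 to 44.8 TPM.

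These calls rest on a fit that draws its estimate of the spread from all 16 libraries. Fitted on the 8 libraries of each pair alone, 0 of 39 members passed in limma for RPMI_glcM/B27 against RPMI/B27. For HPLM/B27 against RPMI/B27, 1 passed, COX5A (adjusted p = 0.0467). With all genes above 0 tested, ATP5F1B lost its call in RPMI_glcM/B27 and ATP5MGL, ATP5PO, COX7A2 and UQCRFS1 theirs in HPLM/B27. Limma-voom on whole reads of all libraries called 16 and 22 of 38 members higher, where it called 6.98% and 8.64% of all genes higher. Left out singly, RPMI_glcM/B27 library 1 or 2 brought the RPMI_glcM/B27 count to 4 and RPMI/B27 library 1 or 2 to 11, and HPLM/B27 library 1, 2 or 3 brought the HPLM/B27 count to 6, 4 or 5. Without RPMI/B27 libraries 3 and 4 together, an alternative chosen after seeing the data, 9 and 12 members were higher and 0 lower, against 1.04% and 1.53% of all genes called higher.

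Over time in standard RPMI/B27 the deposited TPM of the subunits went down. From Day 16 to Day 30 in RPMI/B27, 10 of 39 members fell and 0 rose, with 17.8% of all genes tested called lower and 2.08% higher, and the members' median log2 fold change was -0.32 against -0.28 for all genes. The share called thus lay above that of all genes while the median was only -0.04 from theirs. By complex, 1 of 9 genes of complex III fell, 4 of 12 of complex IV and 5 of 18 of complex V. COX5A went from 102, 92.8, 101 and 89.7 TPM at Day 16 to the 4 RPMI/B27 values above (log2 fold change -0.71, SE 0.124, adjusted p = 0.00123). ATP5F1B went from 669, 748, 689 and 595 TPM (-0.76, SE 0.135, adjusted p = 0.00151) and COX6A1 from 224, 175, 238 and 184 TPM (-0.88, SE 0.18, adjusted p = 0.00355). In each of these genes the Day 30 RPMI/B27 libraries were all below the Day 16 libraries.

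ATP5MC1 (-0.93, adjusted p = 0.00435), ATP5F1A, the alpha subunit (-0.81, adjusted p = 0.00493), UQCRC1 (-0.43, adjusted p = 0.00511), COX7A2 (-0.52, adjusted p = 0.0131), ATP5PO (-0.40, adjusted p = 0.0131), COX8A, a small membrane subunit (-0.49, adjusted p = 0.0225), and ATP5PB, the b subunit of the stalk (-0.42, adjusted p = 0.0385), were the others that fell. The calls of COX8A and ATP5PB were lost on leaving out 3 and 5 of the 8 libraries in turn. TPM are shares of a whole, and the whole moved: libraries of Day 16 had median-of-ratios factors of 1.06 to 1.34 and RPMI/B27 libraries of Day 30 of 0.727 to 1.19. With the TPM rescaled by these factors the median of all genes tested became 0.01 and that of the members 0.00. Then 5 members were lower and 1 higher, with 8.76% of all genes called in each direction. COX5A (-0.38, adjusted p = 0.00537), ATP5F1B (-0.41), COX6A1 (-0.55), ATP5MC1 (-0.60) and ATP5F1A (-0.47) remained lower, UQCRC1, COX7A2, ATP5PO, COX8A and ATP5PB no longer passed (adjusted p = 0.430 to 0.689), and UQCR11, a small complex III subunit, was higher (0.31, adjusted p = 0.0445).

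Against Day 16, few members passed the test in the 5 mM glucose media, and the count depended on scaling. In RPMI_glcM/B27 at Day 30, 4 of 39 were higher and 0 lower than at Day 16, where 3.34% of all genes were called higher and 17.8% lower. In HPLM/B27, 1 was higher and 0 lower, where 3% of all genes were called higher and 22.4% lower. UQCRB was the member that passed in HPLM/B27 (0.58, SE 0.0883, adjusted p = 0.000256) and had the smallest adjusted p in RPMI_glcM/B27 (0.56, adjusted p = 0.000350). The other 3 in RPMI_glcM/B27 were subunits of the membrane part of complex V. ATP5ME, the e subunit, was at 135, 140.2, 138 and 137 TPM at Day 16 and at 213, 194, 173 and 177 TPM in RPMI_glcM/B27 (0.45, adjusted p = 0.0203), with 124, 122, 178 and 117 TPM in RPMI/B27 and 198, 155, 149.9 and 158 TPM in HPLM/B27 beside it. ATP5MGL was at 5.65, 5.31, 4.47 and 3.12 TPM at Day 16 and at 7.22, 7.85, 7.08 and 8.21 TPM in RPMI_glcM/B27 (0.63, adjusted p = 0.0299), with 3.07, 4.85, 3.13 and 2.98 TPM in RPMI/B27 and 8.65, 9.14, 5.58 and 5.21 TPM in HPLM/B27. For both genes the Day 16 and RPMI_glcM/B27 libraries did not overlap, and ATP5MG had 0.32 (adjusted p = 0.0313). UQCRC1 did not overlap either, in the other direction, with 88.2 to 95.6 TPM at Day 16 and 82.6 to 87.1 TPM in RPMI_glcM/B27, and did not pass (-0.13, adjusted p = 0.345). Leaving out Day 16 library 1 (adjusted p = 0.0531) or RPMI_glcM/B27 library 1 (0.0615) ended the call of ATP5ME, 5 of 8 libraries that of ATP5MGL (up to 0.0879) and 7 of 8 that of ATP5MG (up to 0.0796).

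Over all genes the median change from Day 16 was -0.22 for RPMI_glcM/B27 and -0.29 for HPLM/B27. The members' medians were 0.11 and 0.09, which is 0.32 and 0.37 above all genes. After median-of-ratios rescaling, 16 members were higher in RPMI_glcM/B27 than at Day 16 (14% of all genes) and 22 in HPLM/B27 (13.4%), with 0 lower in either. In the rescaled values COX7B rose in both (0.47, adjusted p = 0.0143 and 0.64, adjusted p = 0.00227), whereas in the deposited TPM it did not pass (0.20, adjusted p = 0.186 and 0.29, adjusted p = 0.0541). COX7B stood at 57.4, 57.6, 71.7 and 63.7 TPM at Day 16, overlapping RPMI_glcM/B27 and lying below every HPLM/B27 library. Medians within Day 30 moved less, to 0.33 and 0.39, and the rescaled values put 15 members higher in RPMI_glcM/B27 than in RPMI/B27 (6.46% of all genes) and 21 in HPLM/B27 (7.43%), with 0 lower.

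**Figure D3:**
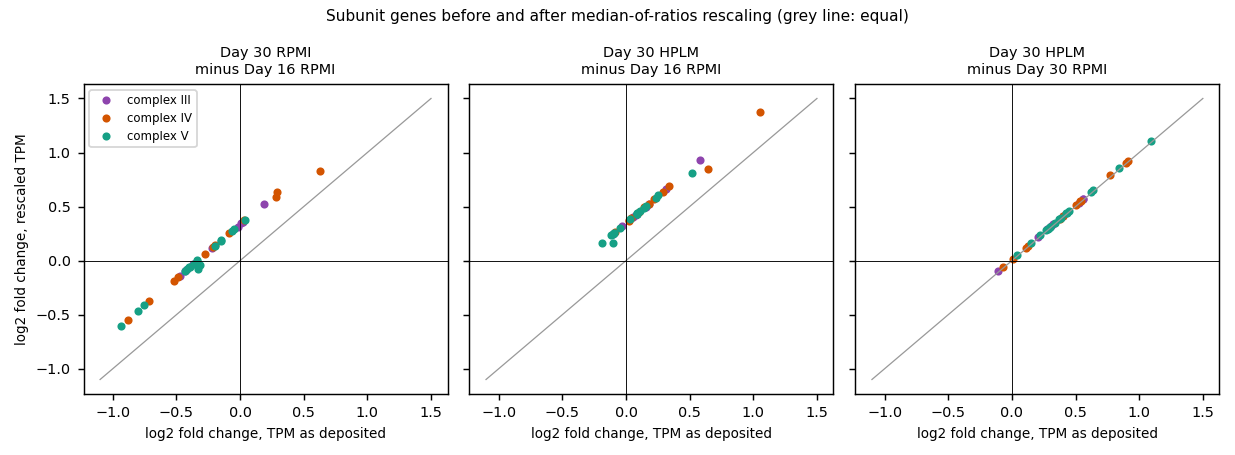
Log2 fold change of each tested subunit gene in the deposited TPM (x axis) and after median-of-ratios rescaling (y axis) in 3 comparisons, coloured by complex, with a line where both are equal. Points of both comparisons with Day 16 lie above the line, and those of HPLM/B27 minus RPMI/B27 at Day 30 lie near it.

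The TPM of the subunits were also summed by complex. Complex V summed to 2699 ± 122 TPM (SD, n = 4) at Day 16, 2061 ± 302 TPM in RPMI/B27, 2779 ± 122 TPM in RPMI_glcM/B27 and 2733 ± 110.1 TPM in HPLM/B27. Complex III summed to 671 ± 19.4, 578 ± 39.7, 704 ± 26.2 and 714 ± 32.5 TPM in the same order. In both, the highest RPMI/B27 library lay below the lowest of the other groups in the deposited TPM. The sums were not rescaled. Median-of-ratios factors differ between the groups, so the order of libraries in these sums depends on scaling. Complex IV summed to 3643 ± 190.0, 3496 ± 322, 3929 ± 122 and 4178 ± 125 TPM, and RPMI/B27 library 3, at 3971 TPM, lay above every Day 16 library and within the range of RPMI_glcM/B27.

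COX7C and UQCR10 were chosen for description after their values were seen. COX7C, another small complex IV subunit, was at 593 and 618 TPM in RPMI/B27 libraries 1 and 2 but at 1357 and 1280.5 TPM in libraries 3 and 4, and the 4 libraries with the most RNR1 of all 16 were the 4 with the most COX7C. UQCR10, a small complex III subunit, showed the same in 3 of 4. Over the 8 libraries with RNR1 above 1000 TPM, COX7C ranged from 593 to 1357 TPM and UQCR10 from 61.5 to 94.6 TPM, and over the other 8 from 550.4 to 761 TPM and from 44.5 to 70.4 TPM. Neither gene passed in any comparison, and COX7C has an exon that overlaps the small nucleolar RNA gene SNORD138. In the deposited TPM, members did not all move with RNR1. In RPMI/B27 at Day 30, libraries 3 and 4 were both below 1 and 2 for 23 of 39 members, COX5A and ATP5F1B among them, and both above for 5. After rescaling these counts were 1 and 23, with COX5A among those above, so the direction depended on scaling. The same counts over all genes were not made.

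**Figure D4:**
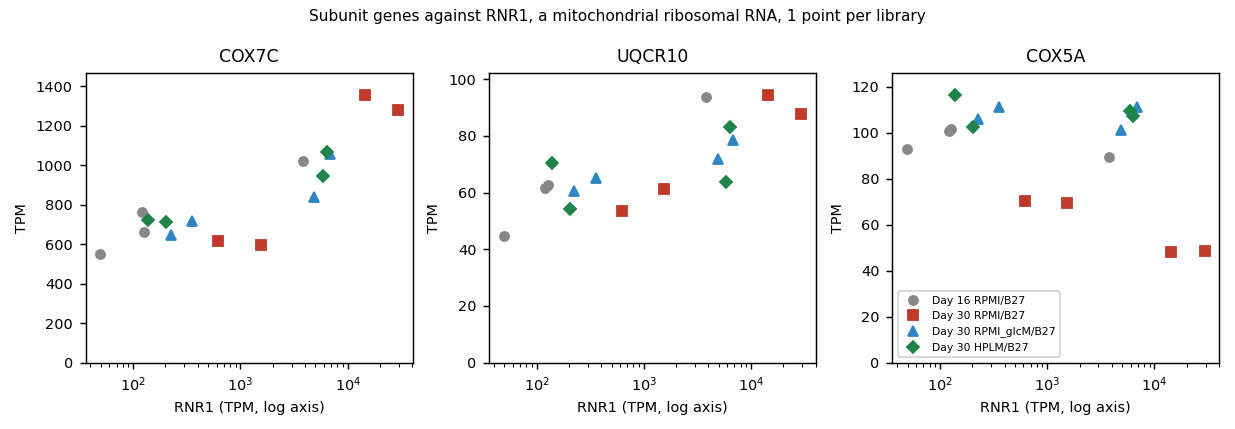
TPM of COX7C, UQCR10 and COX5A (y axis) against TPM of RNR1 on a log axis (x axis), with a point for each of the 16 libraries, coloured by group. In these deposited TPM, COX7C is highest in the 2 RPMI/B27 libraries with RNR1 of 14387 and 29276 TPM, and COX5A is lowest in them.

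Several subunits have paralogous genes, and the shares of TPM that these take within a library do not depend on scaling. Exact two-sided permutation tests of 4 libraries against 4, whose smallest possible p is 0.0286, were run for 4 shares in 6 comparisons, and none of the 24 passed after Benjamini-Hochberg adjustment (lowest adjusted p = 0.343). At least 14 of the 24 would have had to reach the smallest p for any to pass, so the adjusted values say little about whether shares differed. The c subunit is encoded by ATP5MC1, ATP5MC2 and ATP5MC3. Their counted lengths were 647, 3341 and 3482 bases, and the size of a TPM share rests on these lengths. ATP5MC1 took 30.8, 22.6, 35.5 and 25.2% of their sum in RPMI/B27 at Day 30, 35.9, 36.3, 38.3 and 40.6% in RPMI_glcM/B27, 41.8, 44.4, 37.4 and 41.3% in HPLM/B27 and 37.1, 31.1, 40.7 and 39.0% at Day 16. Every library of both 5 mM glucose media was above every RPMI/B27 library of that day, by 9.22 and 12.7 percentage points on average (exact permutation p = 0.0286, adjusted p = 0.343, for each). ATP5MC2 ranged from 19.7 to 46.4 TPM and ATP5MC3 from 38.6 to 85.1 TPM, and neither passed the test in any comparison.

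The striated muscle forms of complex IV stayed minor and were thinly measured. COX6A2, the heart and skeletal muscle form of subunit VIa, was at 4.28, 22.1, 10.3 and 13.4 TPM at Day 16, 18.3, 20.8, 5.61 and 14.8 TPM in RPMI/B27, 29.0, 9.96, 16.9 and 20.6 TPM in RPMI_glcM/B27 and 29.8, 21.4, 27.6 and 17.8 TPM in HPLM/B27, from 6 to 53 reads. Groups overlapped throughout. Its log2 fold change from Day 16 to HPLM/B27 was 1.05 (SE 0.424, adjusted p = 0.0765), the largest of any member in that comparison, and with rescaled TPM 1.38 (adjusted p = 0.0218). COX6A2 took 6.01 ± 4.01% of the COX6A1 and COX6A2 sum at Day 16 (SD, n = 4), 12.0 ± 5.52% in RPMI/B27, 9.60 ± 3.43% with RPMI_glcM/B27 and 10.5 ± 2.83% with HPLM/B27.

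COX7A1, the heart and skeletal muscle form of subunit VIIa, had 0 to 8 reads in a library. It was at 3.12, 1.47, 1.62 and 0 TPM at Day 16, 4.01, 2.72, 1.23 and 2.69 TPM in RPMI/B27, 0.738, 2.52, 4.62 and 5.62 TPM in RPMI_glcM/B27 and 0.616, 4.56, 4.56 and 2.16 TPM in HPLM/B27. Its share of the COX7A1 and COX7A2 sum was 5.58 ± 4.48% at Day 16, 13.1 ± 5.63% in RPMI/B27, 11.8 ± 7.04% with RPMI_glcM/B27 and 9.36 ± 4.92% with HPLM/B27 (SD, n = 4), so the widely expressed COX7A2 made most of the sum in all groups. COX4I1 was at 333 to 358 TPM at Day 16, 275 to 359 TPM in RPMI/B27, 358 to 376 TPM in RPMI_glcM/B27 and 343 to 368 TPM in HPLM/B27, and its paralog COX4I2 never exceeded 0.195% of their sum.

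**Figure D5:**
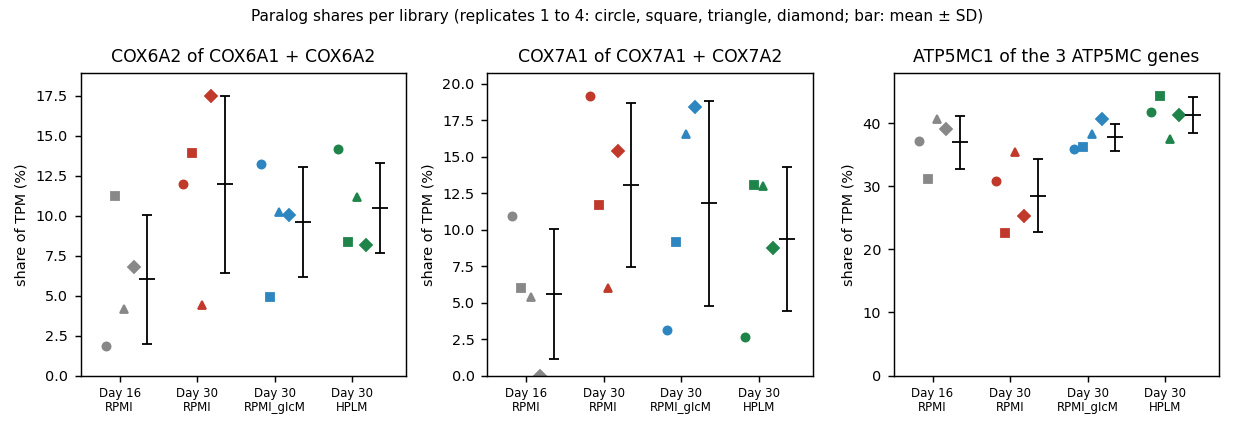
Share of TPM, in percent (y axis), of COX6A2, COX7A1 and ATP5MC1 among the paralogs of their subunit in each library, by group (x axis), with mean and SD of 4 libraries. The ATP5MC1 panel shows RPMI/B27 at Day 30, at 22.6 to 35.5%, below both 5 mM glucose media, at 35.9 to 44.4%, while groups overlap in the other panels.

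Genes that work with these complexes were counted from lists. Of all genes tested, 1.51% were called higher in HPLM/B27 than in RPMI/B27 at Day 30 and 1.36% in RPMI_glcM/B27. Of the factors that assemble the complexes, 0 of 6 for complex III, 1 of 25 for complex IV and 0 of 6 for complex V were higher in HPLM/B27 than in RPMI/B27 at Day 30, and none was lower. The complex IV gene was PNKD (0.63, adjusted p = 0.0365), and in RPMI_glcM/B27 it was COA7 (0.81, adjusted p = 0.0325). Among 9 partners, such as cytochrome c and the ADP/ATP carriers, 3 were higher in HPLM/B27 than in RPMI/B27: SLC25A4, the heart and muscle ADP/ATP carrier (0.79, adjusted p = 0.00783), CYCS, cytochrome c (0.58, adjusted p = 0.0137), and SLC25A5, a further carrier (0.59, adjusted p = 0.0303). SLC25A4 also rose from Day 16 to HPLM/B27 (0.83, adjusted p = 0.000804) and to RPMI_glcM/B27 (0.71, adjusted p = 0.00255).

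Complex I, the entry point for electrons from NADH, had 3 of 35 genes higher in HPLM/B27 than in RPMI/B27 and 4 of 35 in RPMI_glcM/B27, with NDUFB9 at the smallest adjusted p (0.86 and 0.88). Its median log2 fold change was 0.24 in each, beside 0.38 for the complex III to V members. Of the 4 complex II genes, SDHB, the iron-sulfur subunit, was higher in HPLM/B27 (0.63, adjusted p = 0.0313). Whether the complexes differed from each other in their response was not tested.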

How the data were processed

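RNA-seq was made from 16 wells of WTC11 hPSC-CMs (4 per group, 1 differentiation) with a stranded total RNA kit. Per the labels and the study's methods, the authors aligned reads with STAR 2.5.3a to hg38 with decoys, counted with featureCounts 2.0.3 and deposited TPM (transcripts scaled by length and depth) for 43388 genes. The annotation, gene lengths and strand setting are not given in the sources used here. The authors' own count table was not used here. TPM of low genes stepped by whole reads, and reads were recovered for all 31047 genes above 0, 7744768 to 16183655 per library. TPM are shares, so a change in abundant ribosomal RNA moves every other gene.

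limma 3.58.1 in R 4.3.3, with a mean-variance trend, was fitted to log2(TPM + 1) of 16122 genes averaging at least 1 TPM, with all 16 libraries and group as the only term, two-sided, with Benjamini-Hochberg adjustment within each comparison and a threshold of 0.05. Fold changes are on the log2(TPM + 1) scale, which understates those of low genes. Every adjusted p in the text is limma's unless a permutation test is named. Isoform shares were compared by exact permutation in Python 3.11.15 with scipy 1.17.1. Scripts were tested on simulated data. Members and lists were chosen with earlier results of these data known. Values in every library are given for COX7B, COX6A1, COX6A2 and COX7A1. Up to 3 members per direction with the smallest adjusted p are given by library in the groups compared. Of the other paralogs whose shares were tested, ATP5MC1 and COX7A2 have TPM by library at Day 30 only. ATP5MC2, ATP5MC3 and COX4I1 are given as ranges and COX4I2 by its largest share. Other called members are given by their changes. Promoters are from RefSeq (GRCh38.p14). ATP5MK, ATP5MJ and COA8 are listed as ATP5MD, ATP5MPL and APOPT1. Replicate numbers are shared by the groups, but same-numbered libraries deviated together with correlations of -0.066 to 0.211, not all above 0.1, so the main fit has no block. Alternatives were another filter, pseudocount, scaling, pairs of groups alone, a replicate block, an RNR1 covariate, limma-voom on recovered reads, and libraries left out. A further fit was without ribosomal RNA, mitochondrial transfer RNA, MTRNR2-like genes and 7SK RNA, with mitochondrial messenger RNA kept. The fits that leave out RPMI/B27 libraries 3 and 4 together were chosen after seeing the data.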

Additional observations from a re-analysis of the deposited data

Results flagged for a closer look

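Each of the 39 tested genes and 3 isoform shares was looked at in each group, which makes 168 sets of 4 libraries. In 8 of them a library lay apart from the other 3 by Dixon's criterion at the 95% level, and chance alone flags about 1 in 20 sets. In RPMI/B27 at Day 30, library 4 was lowest for COX5B, at 629 TPM against 1015 to 1075 TPM, and for COX8A, at 46.7 TPM against 68.1 to 71.8 TPM. In the same group library 3 was highest for ATP5ME, at 178 TPM against 117 to 124 TPM, and library 2 for ATP5MGL, at 4.85 TPM against 2.98 to 3.13 TPM. In HPLM/B27, library 2 was highest for UQCRFS1, at 63.2 TPM against 55.2 to 55.3 TPM, library 1 was highest for ATP5ME, at 198 TPM against 149.9 to 158 TPM, and library 4 was lowest for COX7B, at 72.4 TPM against 77.6 to 78.2 TPM. In RPMI_glcM/B27, library 3 was lowest for COX6A1, at 148 TPM against 185 to 192 TPM.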

How the results depend on the processing

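Of the 33 calls of single members, all 33 were kept with a minimum of 5 TPM, a pseudocount of 0.1 or a replicate block, 29 with RNR1 as a covariate, 28 by limma-voom, 28 without ribosomal, mitochondrial transfer, MTRNR2-like and 7SK RNA, 26 with median-of-ratios rescaling, 26 with all genes above 0 and 10 on pairs of groups alone. None changed direction in these fits.

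Members called from Day 16 to Day 30 in RPMI/B27 (10) numbered 6 after rescaling, 5 without ribosomal, mitochondrial transfer, MTRNR2-like and 7SK RNA, 4 on the pair alone, 6 with the RNR1 covariate, 6 by voom, 6 without RPMI/B27 libraries 3 and 4 and 5 when these were left out of rescaled values. For RPMI_glcM/B27 against Day 16 (4) the same alternatives gave 16 rescaled, 14 without those RNAs, 17 by voom and 19 with both libraries out of rescaled values. For HPLM/B27 against Day 16 (1) they gave 22, 17, 5 on the pair alone, 5 with the RNR1 covariate, 26 by voom, 8 without both libraries and 30 with these left out of rescaled values. For RPMI_glcM/B27 against RPMI/B27 (7) they gave 15, 17, 0 on the pair, 13 with RNR1, 16 by voom and 21. For HPLM/B27 against RPMI/B27 (11) they gave 21, 21, 1 on the pair, 22 by voom, 26, and 7 with all genes above 0. Shares of all genes called moved with the fit too. For HPLM/B27 against Day 16, 3% of all genes were higher in the main fit and 13.4% after rescaling. For HPLM/B27 against RPMI/B27 they were 1.51%, 7.43% after rescaling and 8.64% by voom. Without such a share for each fit, these counts show how the calls depend on processing and are no result about the members. The cause was not tested.

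With a replicate block the counts were 15, 5, 5, 14, 14 and 0, in the order above with HPLM/B27 against RPMI_glcM/B27 last, and the numbers do not show that wells were paired. Shares of all genes are not given for these fits either. Leaving out single libraries gave 8 to 16 (16 without RPMI/B27 library 2), 2 to 4, 1 to 2, 4 to 11, 4 to 12 and 0 to 0. The count for RPMI_glcM/B27 against Day 16 was 2 without Day 16 library 1, 3 or 4 or RPMI_glcM/B27 library 2, 3 or 4, and that for HPLM/B27 against Day 16 was 2 without Day 16 library 2 or 3 or HPLM/B27 library 4. COX6A2 and COX7A1, with at most 53 and 8 reads, limit what their shares can show.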
